A study of Mus musculus with 12 samples.

Results

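The genes described are 8 of the 25230 in the deposited table: Acod1, Nos2, Gch1, Slc7a2, Ass1, Asl, Arg1 and Arg2, taken from the table by symbol. They encode the enzyme that makes itaconate and the enzymes and the carrier that share arginine between nitric oxide, citrulline and ornithine. Of the 8, 6 reached 1 TPM (a level per transcript length, scaled to the same total in each library) in at least 3 of the 12 libraries and were tested, and Arg1 and Ass1 were too low to judge. Nos2 was tested only because its 3 WT C. albicans libraries passed that minimum.

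Macrophages that sense microbes rewire a few small-molecule pathways. ACOD1 decarboxylates cis-aconitate, an intermediate of the TCA cycle, to itaconate, which inhibits succinate dehydrogenase and restrains microbes and inflammation. NOS2, the inducible nitric oxide synthase, turns arginine into nitric oxide and citrulline and needs the cofactor tetrahydrobiopterin. Arginases split the same arginine into ornithine and urea, and argininosuccinate synthase and lyase rebuild arginine from citrulline. This competition for arginine is best known from mouse macrophages.

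The libraries were made from polyadenylated RNA of bone marrow derived macrophages (BMDMs), cells grown from mouse femur and tibia marrow with recombinant M-CSF. There were 4 groups of 3 libraries each: Piezo1 KO cells with Candida albicans, a fungal pathogen, WT cells with C. albicans, Piezo1 KO cells with PBS and WT cells with PBS. PIEZO1 is a cation channel of the plasma membrane opened by mechanical force. Titles of the KO PBS group name DMSO, and its treatment labels name PBS. The sources used here do not state the allele, the driver of the deletion, the dose and time of exposure, the strain and age of the mice, or whether replicates came from separate mice, so p-values measure the spread between these libraries only.

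Reads in genes numbered between 16400119 and 25741091 per library. Piezo1 itself was listed at 64.3 to 65.7 TPM in KO C. albicans libraries, 131.7 to 146.9 TPM in WT C. albicans libraries, 62.4 to 67.5 TPM in KO PBS libraries and 130.4 to 139.6 TPM in WT PBS libraries. The KO cells thus retained 47.4% of the WT mean with C. albicans and 48.6% with PBS, and the sources used here do not state which part of the gene was deleted. All 9 macrophage markers averaged at least 1 TPM in each group, with summed levels between 13302.5 and 14438 TPM. Some single markers differed more between groups than the sums. Itgam averaged 106, 134, 77.8 and 136 TPM in KO C. albicans, WT C. albicans, KO PBS and WT PBS libraries. Mertk averaged 44.6, 33.2, 50.0 and 61.9 TPM in that order. Sums of 9 neutrophil markers lay between 9.35 and 15.9 TPM, with Ly6g and S100a9 listed at 0, and all 5 erythroid markers were listed at 0. S100a8 averaged between 2.06 TPM in WT PBS libraries and 6.68 TPM in WT C. albicans libraries. A listed 0 is no measure of expression here, as described below for Oaz1, so these zeros do not show that such cells were absent. The 5 T and NK markers summed to at most 1.81 TPM and the 4 B cell markers to at most 4.03 TPM, both highest in WT PBS libraries. Sums of 3 osteoclast markers were 134.9 to 138.6 TPM in KO C. albicans libraries, 103.6 to 113.8 TPM in WT C. albicans libraries, 159.3 to 162.5 TPM in KO PBS libraries and 137.6 to 142.9 TPM in WT PBS libraries. These sums were lowest in the WT C. albicans libraries, where Acod1, Nos2, Gch1 and Slc7a2 were highest. Acp5 averaged 50.3 TPM there, and 80.5, 98.0 and 81.0 TPM in KO C. albicans, KO PBS and WT PBS libraries. Over these 4 groups in that order, Ctsk averaged 58.8, 55.7, 62.6 and 59.5 TPM, and Ocstamp 0.369, 0.0979, 0.0365 and 0.148 TPM. The part of these markers in the results for those members was not tested. WT C. albicans replicate 1 stood apart from the other libraries of its group. Over all genes, its chi-square per degree of freedom against them was 15.3 and 16.2, where all other pairs of replicates gave 1.49 to 4.60. Its Acod1, Nos2 and Slc7a2 levels were 70.2%, 34.2% and 69.6% of the mean of the other two.

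Acod1 and Gch1 are the members that C. albicans raised past the threshold in both genotypes, and the 250 bases upstream of their start sites are shown for that reason. They are RefSeq sequences of the GRCm38.p6 build, which is the assembly of mm10, written 5′ to 3′ on the strand of each gene. The Acod1 stretch is chr14:103046762-103047011 on the plus strand and the Gch1 stretch is chr14:47189414-47189663 on the minus strand. Capitals mark each match to the TATA box letters TATAAA on either strand.

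Acod1: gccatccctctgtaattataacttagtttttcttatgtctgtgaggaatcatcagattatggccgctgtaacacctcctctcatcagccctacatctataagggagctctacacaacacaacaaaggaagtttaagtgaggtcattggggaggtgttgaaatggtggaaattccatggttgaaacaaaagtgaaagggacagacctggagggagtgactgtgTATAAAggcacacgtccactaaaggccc

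Gch1: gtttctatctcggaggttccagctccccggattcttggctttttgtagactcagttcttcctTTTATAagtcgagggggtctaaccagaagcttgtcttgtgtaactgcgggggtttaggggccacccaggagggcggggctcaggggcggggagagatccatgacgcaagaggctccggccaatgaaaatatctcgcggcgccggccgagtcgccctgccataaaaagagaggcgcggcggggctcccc

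The Acod1 match lay 28 to 23 bases upstream of the start, on the gene's own strand. The Gch1 match lay 188 to 183 bases upstream and read TATAAA on the opposite strand. TATAAA was present in 12.4% of 32851 RefSeq promoters of this length, on either strand. The other 4 sets of letters gave no match in these stretches: GGGA and TCC with 3 free bases between them for NF-kB, GAAA and again GAAA with 2 free bases between them for the interferon-stimulated response element, TTCNNNGAA for STAT and TGANTCA for AP-1. They occur in 3.86%, 2.98%, 7.02% and 6.75% of promoters, in that order. None of the searched sets of letters overlapped another in these stretches. Promoter sequences were matched for 3 of the 8 members, the remaining one being Ass1.

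Acod1, the itaconate enzyme (Entrez 16365, chr14:103047012-103056573, plus strand), was the most abundant of the 8 genes with C. albicans. Its level was 119.5, 114.2 and 117.8 TPM in the 3 KO C. albicans libraries and 314.1, 450.8 and 443.9 TPM in the WT C. albicans libraries. With PBS it was 38.6, 37.0 and 37.1 TPM in KO libraries and 60.5, 58.3 and 59.2 TPM in WT libraries. No 2 groups overlapped, and WT C. albicans libraries were highest and KO PBS libraries lowest. These are bulk libraries, so fewer cells with a transcript and less of it per cell cannot be told apart.

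C. albicans raised Acod1 in both genotypes. The mean was 117 ± 2.72 TPM in KO C. albicans libraries against 37.6 ± 0.909 TPM in KO PBS libraries (SD, n = 3 each), a ratio of 3.12. In WT cells it was 403 ± 77.0 TPM with C. albicans against 59.3 ± 1.09 TPM with PBS (SD, n = 3 each), a ratio of 6.79. On the log2(TPM + 1) scale the increase was 1.61 in KO cells (SE 0.10, limma adjusted p = 2.91e-07) and 2.72 in WT cells (SE 0.10, adjusted p = 3.8e-10). The response in KO minus the response in WT, called the interaction below, was -1.11 (SE 0.14, adjusted p = 0.000318). Without WT C. albicans replicate 1 it was -1.28.

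Acod1 was lower in KO cells with either treatment. The KO mean was 29.1% of the WT mean with C. albicans, a log2 difference of -1.75 (SE 0.10, limma adjusted p = 1.35e-07). With PBS it was 63.3%, a log2 difference of -0.65 (SE 0.10, adjusted p = 0.000457).

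**Figure D1:**
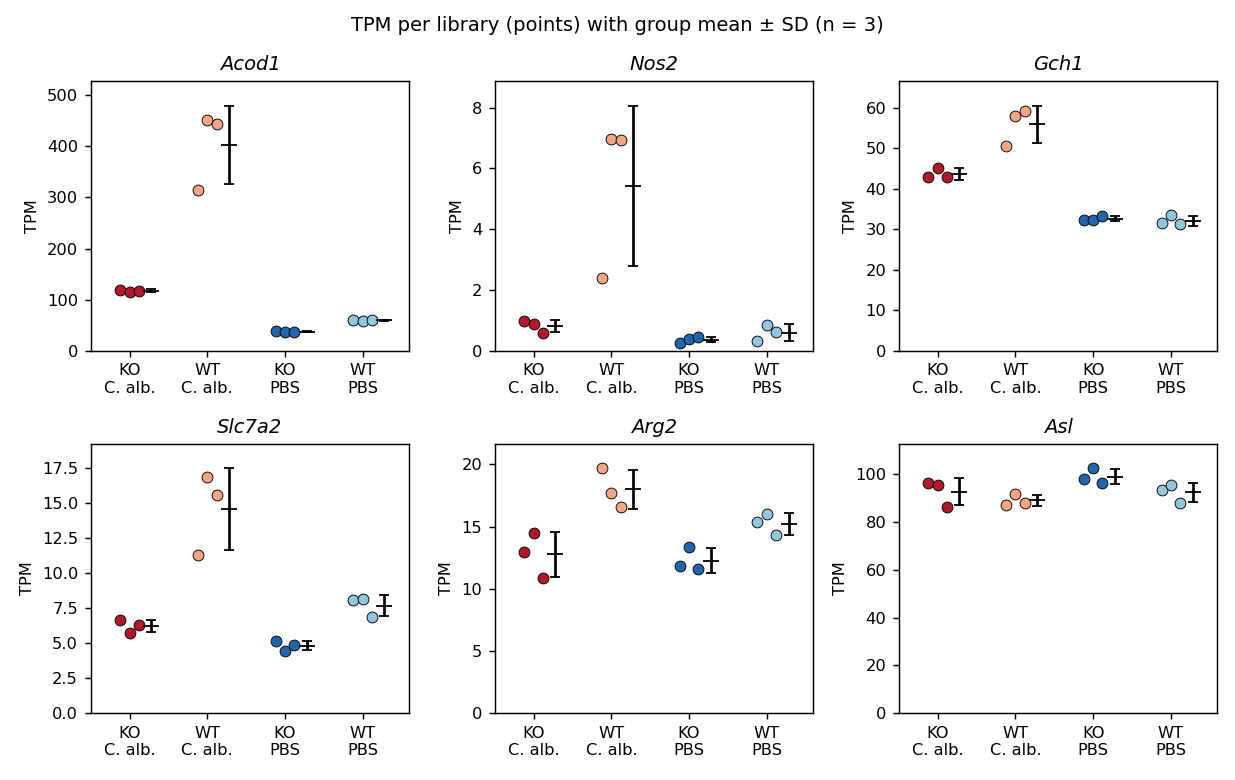
TPM of the 6 tested genes in every library (vertical axes, starting at 0) by group (horizontal axes, 3 libraries each); points are libraries and bars beside them the group mean ± SD. Acod1, Nos2 and Slc7a2 stood highest in the 3 WT C. albicans libraries, Gch1 rose with C. albicans in both genotypes, Arg2 was lower in KO cells, and the Asl groups lay close together.

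Nos2, the inducible nitric oxide synthase (Entrez 18126, chr11:78920787-78960226, plus strand), was scarce in every group. It was listed at 0.982, 0.870 and 0.586 TPM in KO C. albicans libraries (41, 41 and 27 reads) and at 2.38, 6.96 and 6.94 TPM in WT C. albicans libraries (82, 296 and 242 reads). The PBS values were 0.259, 0.399 and 0.438 TPM in KO libraries (13, 16 and 14 reads) and 0.307, 0.854 and 0.614 TPM in WT libraries (10, 27 and 22 reads). All WT C. albicans libraries lay above every other library, and KO and WT PBS libraries overlapped.

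In KO cells Nos2 averaged 0.813 ± 0.204 TPM with C. albicans and 0.366 ± 0.0939 TPM with PBS (SD, n = 3 each), a difference of 0.40 on the log2(TPM + 1) scale (SE 0.28, limma adjusted p = 0.417). In WT cells it rose: the mean was 5.43 ± 2.64 TPM with C. albicans and 0.592 ± 0.274 TPM with PBS (SD, n = 3 each), a log2 difference of 1.92 (SE 0.28, adjusted p = 0.000137). The added 1 TPM shrinks differences at these levels, and the groups did not overlap in KO cells either. With C. albicans the KO mean was 15.0% of the WT mean (log2 difference -1.73, SE 0.28, adjusted p = 0.00034). The log2 difference between KO and WT cells with PBS was -0.21 (SE 0.28, adjusted p = 0.613). The interaction was -1.52 (SE 0.39, adjusted p = 0.0235), and it passed the threshold in 14 of 22 alternative analyses. Without WT C. albicans replicate 1 it was -1.93 (adjusted p = 0.000114), and on whole reads with limma voom it was -2.03 (adjusted p = 0.162). Nos2 was tested only because its WT C. albicans libraries, where it was high, passed the level minimum. The p-values of comparisons with those libraries are thus a description and no independent support.

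**Figure D2:**
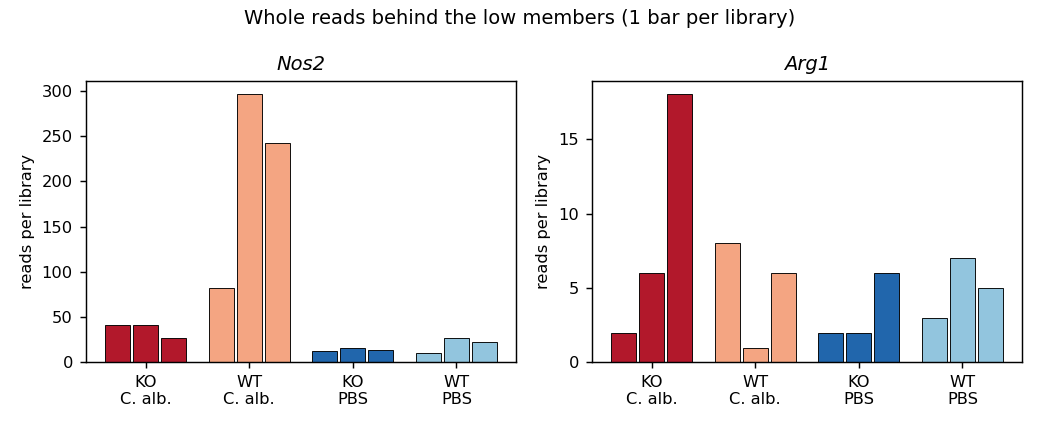
Recovered whole reads per library (vertical axes, starting at 0) of the low members Nos2 and Arg1 by group (horizontal axes, 3 libraries each). Nos2 had at most 41 reads in KO C. albicans libraries and in both PBS groups and 82 to 296 in WT C. albicans libraries, and Arg1 stayed between 1 and 18 reads in all groups.

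Gch1 encodes GTP cyclohydrolase 1, the rate-limiting enzyme of tetrahydrobiopterin synthesis (Entrez 14528, chr14:47153895-47189413, minus strand). Its level was 42.9, 45.3 and 42.9 TPM in KO C. albicans libraries and 50.7, 58.1 and 59.2 TPM in WT C. albicans libraries. With PBS it was 32.3, 32.4 and 33.3 TPM in KO libraries and 31.6, 33.4 and 31.2 TPM in WT libraries. The C. albicans groups lay above the PBS groups and apart from each other, and the PBS groups overlapped. The increase with C. albicans was 0.41 in KO cells (log2 scale, SE 0.057, limma adjusted p = 0.000529) and 0.78 in WT cells (SE 0.057, adjusted p = 3.17e-07). The KO mean with C. albicans was 78.0% of the WT mean (log2 difference -0.35, SE 0.057, adjusted p = 0.00036). The interaction was -0.37 (SE 0.08, adjusted p = 0.00857). With PBS the difference between KO and WT cells was 0.025 (SE 0.057, adjusted p = 0.774).

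Slc7a2 encodes CAT2, a carrier that imports arginine and other cationic amino acids (Entrez 11988, chr8:40862341-40922070, plus strand). It was 6.61, 5.76 and 6.32 TPM in KO C. albicans libraries and 11.3, 16.8 and 15.5 TPM in WT C. albicans libraries. Levels in PBS libraries were 5.15, 4.46 and 4.86 TPM in KO cells and 8.09, 8.11 and 6.84 TPM in WT cells. Every KO library, with either treatment, was below every WT library. The log2 difference between C. albicans and PBS was 0.31 in KO cells (SE 0.12, limma adjusted p = 0.143), and in WT cells Slc7a2 rose by 0.83 (SE 0.12, adjusted p = 0.000162). It was lower in KO cells both with C. albicans, at 42.9% of the WT mean (log2 difference -1.09, SE 0.12, adjusted p = 2.19e-05), and with PBS, at 62.8% (log2 difference -0.57, SE 0.12, adjusted p = 0.00332). The interaction of -0.51 (SE 0.17) had an adjusted p of 0.0669 and became -0.68 (adjusted p = 0.0019) without WT C. albicans replicate 1. With the trend on transcript length and GC content removed, the difference with PBS was -0.32 (adjusted p = 0.102).

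Summed, the 3 endothelial markers, mostly Kdr, had the same order of group means as Slc7a2 and Arg2. Of the single markers only Kdr had that order. Pecam1 was highest in KO C. albicans libraries (mean 2.11 TPM) and Cdh5 in WT PBS libraries (mean 1.66 TPM). The 3 markers summed to 30.7 to 31.8 TPM in KO C. albicans libraries, 38.6 to 46.9 TPM in WT C. albicans libraries, 29.1 to 29.8 TPM in KO PBS libraries and 34.2 to 36.5 TPM in WT PBS libraries. Their part in the Slc7a2 and Arg2 results was not tested. Exons of Slc7a2 overlap those of the opposite-strand lincRNA Gm26584, whose values were not analysed here, and the sources used here do not state whether reads were counted by strand.

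Arg1, the cytosolic arginase (Entrez 11846, chr10:24915207-24927470, minus strand), had 66 reads in all 12 libraries together. It had 2, 6 and 18 reads in KO C. albicans libraries (0.139, 0.371 and 1.14 TPM) and 8, 1 and 6 reads in WT C. albicans libraries (0.675, 0.0684 and 0.501 TPM). With PBS it had 2, 2 and 6 reads in KO libraries (0.116, 0.145 and 0.546 TPM) and 3, 7 and 5 reads in WT libraries (0.268, 0.644 and 0.406 TPM). All groups overlapped. Arg1 missed the minimum level for testing, and with that minimum lifted no comparison gave a limma adjusted p under 0.662, so no difference was detectable at this depth.

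Arg2, the mitochondrial arginase (Entrez 11847, chr12:79130788-79156301, plus strand), was the more abundant arginase. Its level was 13.0, 14.5 and 10.9 TPM in KO C. albicans libraries and 19.7, 17.7 and 16.6 TPM in WT C. albicans libraries. The PBS libraries had 11.9, 13.4 and 11.6 TPM in KO libraries and 15.4, 16.0 and 14.3 TPM in WT libraries. KO libraries lay below WT libraries within each treatment, and C. albicans and PBS libraries overlapped in KO cells. With C. albicans the KO mean was 70.9% of the WT mean (log2 difference -0.47, SE 0.10, limma adjusted p = 0.00183). With PBS it was 80.6% (log2 difference -0.29, SE 0.10, adjusted p = 0.0349). The PBS call was lost in 8 of 24 alternative analyses, among them median-ratio scaling (adjusted p = 0.139) and leaving out KO PBS replicate 1 or 3 or WT PBS replicate 1 or 2. The change with C. albicans was 0.047 in KO cells (SE 0.10, adjusted p = 0.815) and 0.23 in WT cells (SE 0.10, adjusted p = 0.0711). The interaction was -0.18 (SE 0.14, adjusted p = 0.426).

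Exons of Arg2 overlap those of Vti1b, a vesicle fusion protein gene on the opposite strand, and where strand is not known to have been used their reads cannot be told apart. Vti1b averaged 170 ± 13.1 TPM in KO C. albicans libraries, 170 ± 8.07 TPM in WT C. albicans libraries, 166 ± 0.481 TPM in KO PBS libraries and 165 ± 5.50 TPM in WT PBS libraries (SD, n = 3 each). The antisense gene Gm48780 also overlaps Arg2 and was not analysed here.

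Ass1, argininosuccinate synthase (Entrez 11898, chr2:31470270-31520670, plus strand), was listed at 0 in all 12 libraries. Of the 50-base windows of its transcript, 55.3% (911 of 1647) also occur in transcripts of other genes. The gene that shares the most of them is Gm5424, which was listed at 0 as well. Oaz1, a gene that every cell uses, was likewise listed at 0, so a 0 in this table is no measure of expression. Asl, argininosuccinate lyase (Entrez 109900, chr5:130011258-130024381, minus strand), completes the rebuilding of arginine. Its level was 96.3, 95.3 and 86.0 TPM in KO C. albicans libraries and 87.1, 91.7 and 88.0 TPM in WT C. albicans libraries. Cells with PBS had 97.7, 102.3 and 96.3 TPM in KO libraries and 93.2, 95.5 and 88.0 TPM in WT libraries. The groups lay close together. Of the 4 pairs of groups compared, the KO and WT PBS libraries did not overlap and the other 3 pairs did. No comparison of Asl passed the threshold. The log2 differences were between -0.094 (C. albicans in KO cells, adjusted p = 0.273) and 0.098 (KO over WT with PBS, adjusted p = 0.148). Median-ratio scaling gave 0.20 for the difference with PBS (adjusted p = 0.0124), past the threshold.

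**Figure D3:**
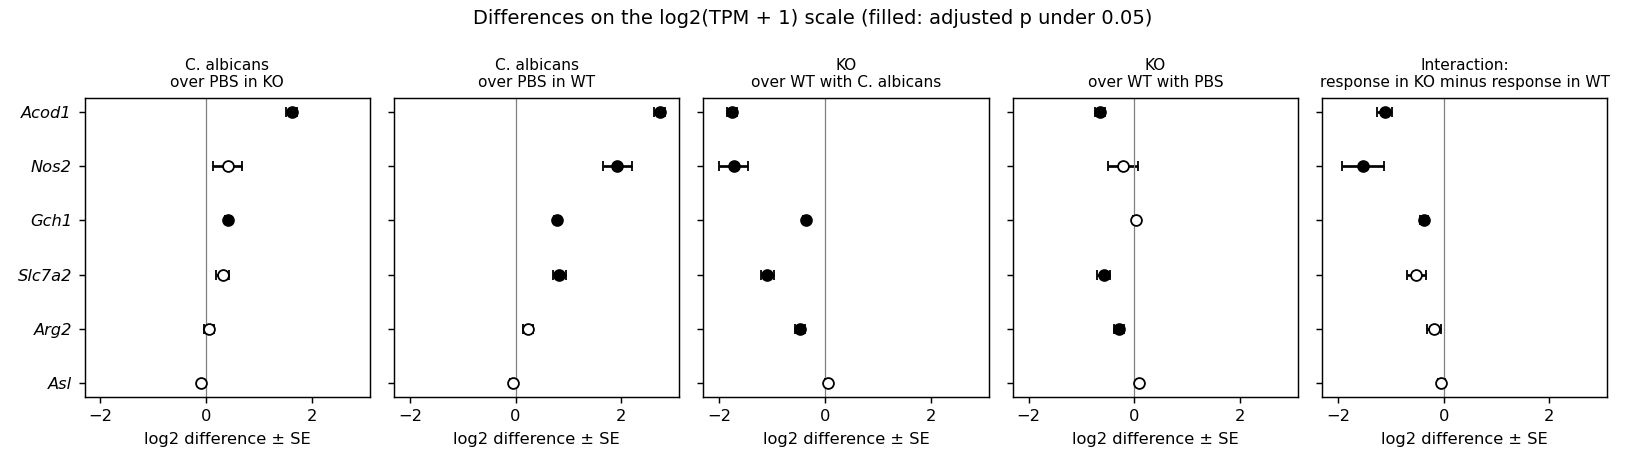
Log2 differences of the 6 tested genes on the log2(TPM + 1) scale (horizontal axes) with their standard errors in the 5 comparisons (panels); filled points have an adjusted p under 0.05. Filled points lie right of 0 for C. albicans over PBS (2 in KO cells, 4 in WT cells) and left of 0 for KO over WT (5 with C. albicans, 3 with PBS) and for the interaction (3).

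Counted together, C. albicans raised 2 of the 6 tested members in KO cells, Acod1 and Gch1, and lowered none. Of all 11283 tested genes, 3.94% were called higher and 3.14% lower in that comparison. In WT cells 4 of 6 rose, with Nos2 and Slc7a2 added, none fell, and 16.1% of all genes were called higher and 28.3% lower. In KO cells with C. albicans 5 of 6 were lower than in WT cells, all but Asl, where 27.5% of all genes were called lower and 12.4% higher. With PBS 3 of 6 were lower in KO cells (Acod1, Slc7a2 and Arg2), against 26.1% of all genes, and 6.14% of all genes were higher. The interaction was negative for 3 of 6 (Acod1, Nos2 and Gch1), against 6.33% of all genes, and it was positive for 7.52% of all genes. Nos2 entered these counts through the WT C. albicans libraries alone, where it was high. With no level minimum the interaction was called for Acod1 and Gch1 and not for Nos2. With a minimum of 5 TPM it was called for Acod1 and Gch1, and Nos2 was not tested. Without WT C. albicans replicate 1, called members numbered 3 for C. albicans in KO cells and 4 in WT cells. They numbered 5 for KO over WT with C. albicans, 3 with PBS and 4 for the interaction. Slc7a2 was the gain in the responses of KO cells and in the interaction. Calls over all 11283 tested genes also changed without that library. They numbered 1487 against 799 for C. albicans in KO cells, and 5421 against 5006 in WT cells. For KO over WT they numbered 4699 against 4503 with C. albicans, and 4225 against 3641 with PBS. For the interaction they numbered 2531 against 1563. The WT response of Acod1 was then 2.89, that of Nos2 2.34, that of Slc7a2 0.99 and that of Gch1 0.85. These comparisons share libraries: the WT C. albicans libraries enter the WT response, the KO to WT difference and the interaction.

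The median log2 difference of the 6 members was 0.36 for C. albicans in KO cells, beside -0.0377 over all tested genes. It was 0.80 in WT cells, beside -0.0705. It was -0.78 for KO over WT with C. albicans, beside -0.0494, and -0.25 with PBS, beside -0.0829. For the interaction it was -0.44, beside 0.0243. The members were chosen with earlier results of these data known, so these medians are a description and were not tested. Nos2, 1 of the 6, passed the level minimum only through the WT C. albicans libraries, where it was high.

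Among all called genes, the share called higher depended on the scaling. It was 55.7% for C. albicans in KO cells and 78.0% with median-ratio scaling, and 36.2% and 55.5% in WT cells. For KO over WT it was 31.1% and 46.9% with C. albicans, and 19.0% and 50.2% with PBS. For the interaction it was 54.3% and 41.2%. With upper-quartile scaling the shares were 69.7% for C. albicans in KO cells, 45.6% in WT cells, 58.1% for KO over WT with C. albicans, 56.3% with PBS and 51.8% for the interaction. Upper-quartile scaling moved the median of all genes by 0.1054 with PBS. Under both scalings Acod1 and Slc7a2 were still called lower in KO cells with PBS, and Arg2 was not.

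The authors' deposited table of C. albicans over PBS in WT cells holds the same genes on a scale without the added 1 TPM. The authors' deposited table puts the Nos2 increase at 3.29 log2 units (SE 0.512, adjusted p = 1.94e-09). For Acod1 the authors' deposited table gives 2.85 (SE 0.133), for Slc7a2 1.01 (SE 0.120) and for Gch1 0.89 (SE 0.0725). For Arg2 the authors' deposited table gives 0.32 (SE 0.140, adjusted p = 0.0609), for Asl 0.030 (SE 0.0611) and for Arg1 -0.031 (SE 0.913), and Ass1 has no value.

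Lists of neighbouring genes were counted with the same tests. The counts stand beside the shares of all tested genes called in either direction, which were 7.08% for C. albicans in KO cells, 44.4% in WT cells, 39.9% for KO over WT with C. albicans, 32.3% with PBS and 13.9% for the interaction. Of the 7 other genes that make, recycle or regulate tetrahydrobiopterin, 5 were tested. None was called for C. albicans in either genotype, with PBS or for the interaction, and 2, Pts and Qdpr, were higher in KO cells with C. albicans. Median-ratio scaling gave 4 higher with C. albicans and 2 with PBS. Under it the share of all called genes that were higher rose from 31.1% to 46.9% and from 19.0% to 50.2%, in that order. Pts, the second enzyme of the pathway, averaged 35.5 ± 0.432 TPM in KO C. albicans libraries and 30.3 ± 3.85 TPM in WT C. albicans libraries (SD, n = 3 each, log2 difference 0.23, limma adjusted p = 0.0345). Spr, the last enzyme, averaged 58.6 ± 4.36 TPM in KO and 51.4 ± 4.57 TPM in WT C. albicans libraries (log2 difference 0.19, adjusted p = 0.0648). Pcbd1 and Gchfr were low. Gch1 rose in both genotypes, as given above.

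Of 9 cationic amino acid and ornithine carriers, 6 were tested. No carrier was called for C. albicans in KO cells, and in WT cells 1 rose and 1 fell. Slc7a1 (CAT1, the general arginine importer) differed by -0.0083 between C. albicans and PBS in KO cells (adjusted p = 0.969) and rose by 0.25 in WT cells (adjusted p = 0.0334). With C. albicans Slc7a1 averaged 11.9 ± 0.763 TPM in KO libraries and 17.1 ± 1.95 TPM in WT libraries (SD, n = 3 each, log2 difference -0.48, adjusted p = 0.000694). Slc3a2, the heavy chain that partners several amino acid carriers, fell by 0.23 in WT cells with C. albicans (adjusted p = 0.000579). In KO cells with C. albicans 1 carrier was higher (Slc3a2) and 2 were lower (Slc7a1 and Slc7a6), and with PBS 2 were lower (Slc7a7 and Slc7a6, exchangers that export cationic amino acids). The interaction was called for none.

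Ornithine from arginase feeds polyamines and proline. Of 19 such genes, 18 were matched in the deposited table and 12 were tested. None was called for C. albicans in KO cells, while 4 rose and 5 fell in WT cells, where 7.08% (KO) and 44.4% (WT) of all tested genes were called. Sms, which makes spermine, averaged 20.3 ± 0.572 TPM in KO C. albicans libraries, 24.3 ± 1.40 TPM in WT C. albicans libraries, 18.5 ± 0.730 TPM in KO PBS libraries and 17.6 ± 0.672 TPM in WT PBS libraries (SD, n = 3 each). Its interaction was -0.32 (adjusted p = 0.018). Paox, which oxidises acetylated polyamines, averaged 30.5 ± 1.48 TPM in KO and 22.8 ± 2.49 TPM in WT C. albicans libraries, and 33.0 ± 1.96 TPM in KO and 38.2 ± 2.21 TPM in WT PBS libraries. Its interaction was 0.61 (adjusted p = 0.00238). That of Sat1, which acetylates polyamines for breakdown, was 0.37 (adjusted p = 0.00438). Azin1, an activator of ornithine decarboxylase through its inhibitor antizyme, was lower in KO cells with C. albicans (log2 difference -0.35, adjusted p = 2.34e-05) and with PBS (log2 difference -0.18, adjusted p = 0.0041). In KO cells 2 genes of the list were higher and 2 lower with C. albicans, and 1 was lower with PBS. Oaz1, Amd1 and Amd2 were listed at 0, and Oaz3, Pycr1 and Agmat were low.

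The rest of the urea cycle was not measurable: of Cps1, Otc and Nags none was tested, and Cps1 and Otc were listed at 0. Of 13 other nitric oxide genes 7 were tested. Nos1 and Nos3, the neuronal and endothelial synthases, did not exceed 0.0129 and 0.192 TPM in any library. Nosip, named after its values were seen, was the 1 gene of the list that fell with C. albicans in WT cells. None of the list was called for C. albicans in KO cells or for the interaction.

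All 25 genes of the TCA cycle and its itaconate neighbours were tested. None was called for C. albicans in KO cells, and 1 rose and 12 fell in WT cells, a count of lower calls that was 7 under median-ratio scaling. The shares of all tested genes called in these comparisons were 7.08% in KO cells and 44.4% in WT cells. The aconitases and isocitrate dehydrogenases stand next to cis-aconitate, the substrate of ACOD1. Idh2, the mitochondrial NADP-dependent isocitrate dehydrogenase, averaged 55.3 ± 2.25 TPM in KO and 43.5 ± 4.05 TPM in WT C. albicans libraries, and 53.3 ± 1.74 TPM in KO and 53.2 ± 1.07 TPM in WT PBS libraries (SD, n = 3 each). Its interaction was 0.34 (limma adjusted p = 0.0182). Idh3b, a subunit of the NAD-dependent enzyme, had an interaction of 0.21 (adjusted p = 0.0174). Aco1, the cytosolic aconitase, had one of 0.30 (adjusted p = 0.00836), and Sdha, the catalytic subunit of succinate dehydrogenase, one of 0.18 (adjusted p = 0.0234). The groups that set these last interactions differed: Aco1 and Sdha were lower in KO cells with PBS (log2 differences -0.27 and -0.20, adjusted p = 0.000629 and 0.000688) and differed by 0.025 and -0.017 with C. albicans. In all, the interaction was called positive for 5 of 25 and negative for none, against 7.52% and 6.33% of all tested genes. In KO cells 6 were higher and 1 lower with C. albicans, and 6 higher and 6 lower with PBS. Of all tested genes, 12.4% were called higher and 27.5% lower with C. albicans, and 6.14% and 26.1% with PBS. Median-ratio scaling gave 14 higher and 1 lower with C. albicans, and 9 higher and 3 lower with PBS. That scaling also raised the share of all called genes that were higher. The share went from 31.1% to 46.9% with C. albicans and from 19.0% to 50.2% with PBS. Without WT C. albicans replicate 1, 11 were higher with C. albicans, where 37.2% of all called genes were higher.

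Of 16 transcription factors known to act at Acod1, Nos2 or Arg1, all were tested. C. albicans raised 3 and lowered none in KO cells, and it raised 8 and lowered 3 in WT cells. The shares of all tested genes called higher and lower were 3.94% and 3.14% in KO cells, and 16.1% and 28.3% in WT cells. With C. albicans 1 factor was higher and 11 were lower in KO cells, and with PBS 1 was higher and 9 were lower. Of all tested genes, 12.4% were called higher and 27.5% lower with C. albicans, and 6.14% and 26.1% with PBS. Median-ratio scaling gave 8 and 5 factors lower, and upper-quartile scaling 5 and 3. These scalings also moved the calls over all genes. The share of called genes that were higher was 31.1% with C. albicans and 19.0% with PBS. It was 46.9% and 50.2% with median-ratio scaling, and 58.1% and 56.3% with upper-quartile scaling. Irf8, a macrophage lineage factor, averaged 158 ± 1.67 TPM in KO and 135 ± 7.51 TPM in WT C. albicans libraries, and 174 ± 4.71 TPM in KO and 209 ± 11.9 TPM in WT PBS libraries (SD, n = 3 each). Its interaction was 0.49 (limma adjusted p = 0.000413). Cebpb, a factor induced by inflammatory signals, averaged 344 ± 13.2 TPM in KO and 391 ± 8.55 TPM in WT C. albicans libraries, and 245 ± 3.76 TPM in KO and 233 ± 17.9 TPM in WT PBS libraries. It rose with C. albicans by 0.49 in KO cells (adjusted p = 2.05e-05) and 0.75 in WT cells (adjusted p = 9.22e-08), with an interaction of -0.26 (adjusted p = 0.0246). Klf4, a factor of alternative activation, had an interaction of -0.72 (adjusted p = 0.00158) and was higher in KO cells with PBS (log2 difference 0.55, adjusted p = 0.000327). Stat3, a transducer of interleukin 6 and interleukin 10 signals, had an interaction of 0.33 (adjusted p = 0.00648).

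Irf1 and Nfkb1 of the same list were chosen after their values were seen. Irf1, an interferon-responsive activator, rose with C. albicans by 1.13 in KO cells (adjusted p = 1.64e-07) and by 1.35 in WT cells (adjusted p = 7.43e-09), with an interaction of -0.22 (adjusted p = 0.147). Nfkb1, an NF-kB subunit, had a difference of 0.28 in KO cells (adjusted p = 0.0505) and rose by 0.67 in WT cells (adjusted p = 2.23e-05), and its interaction was -0.40 (adjusted p = 0.0324). In all, the interaction was called positive for 2 and negative for 4 of the 16 factors, and negative for 7 without WT C. albicans replicate 1. Of all tested genes, 7.52% were called positive and 6.33% negative. Without that replicate, interaction calls over all genes rose from 1563 to 2531, of which 58.2% were positive.

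Arg1 is also a marker of alternative activation, and 4 of 9 other such markers were tested. Chil3 and Retnla were listed at 0, and Mgl2, Ccl17 and Ccl24 were low. Mrc1, the mannose receptor, averaged 87.3 ± 2.75 TPM in KO and 88.9 ± 5.96 TPM in WT C. albicans libraries, and 87.3 ± 1.93 TPM in KO and 141 ± 7.95 TPM in WT PBS libraries (SD, n = 3 each). It fell with C. albicans by 0.66 in WT cells (limma adjusted p = 7.09e-07) and was lower in KO cells with PBS (log2 difference -0.69, adjusted p = 2.74e-06), with an interaction of 0.66 (adjusted p = 0.000118). Il4ra, the interleukin 4 receptor chain, was lower in KO cells with PBS (log2 difference -0.41, adjusted p = 0.00037) and fell by 0.67 in WT cells with C. albicans (adjusted p = 3.42e-06). No marker of this list was called for C. albicans in KO cells, and Clec10a was higher in KO cells with C. albicans (log2 difference 0.60, adjusted p = 0.0364).

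**Figure D4:**
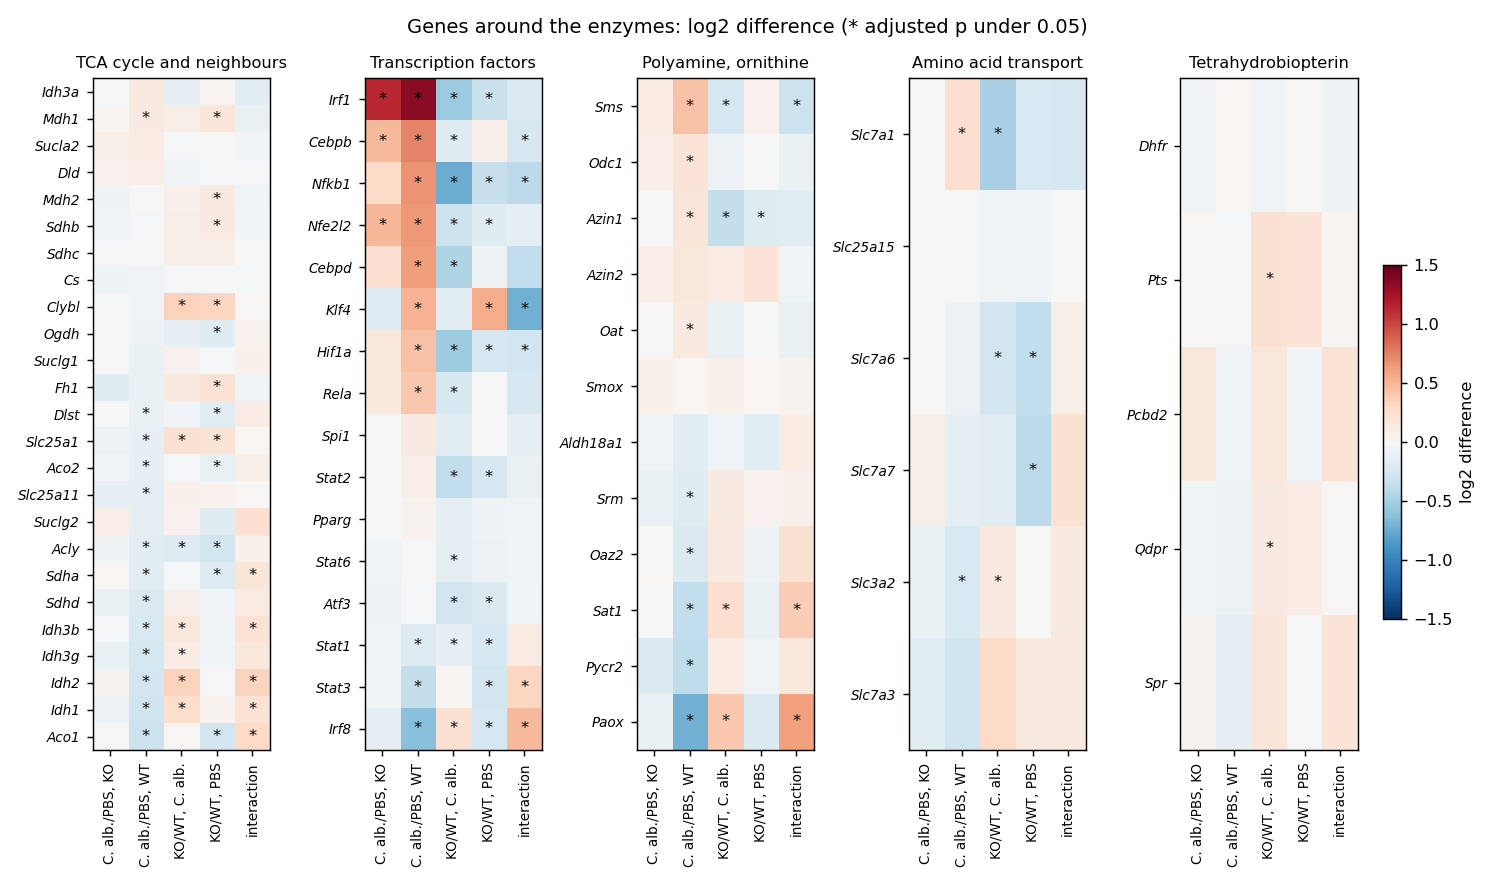
Log2 differences of the tested genes in 5 neighbouring lists (rows) in the 5 comparisons (columns), red for positive and blue for negative; stars mark an adjusted p under 0.05. Stars are absent from the column of C. albicans over PBS in KO cells in 4 of the lists and mark 3 transcription factors there, while in WT cells 12 TCA genes are starred blue and 8 transcription factors red.

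The tested genes most like each member were taken by Pearson correlation of log2(TPM + 1) over the 12 libraries, a description in which all points share the same 4 groups. Cxcl10 (r = 0.997), Spred1 (r = 0.997) and Arl5c (r = 0.995) were most like Acod1. Cxcl10, an interferon-induced chemokine, averaged 41.8 ± 1.24 TPM in KO and 119.7 ± 31.4 TPM in WT C. albicans libraries, and 13.1 ± 1.24 TPM in KO and 20.01 ± 0.759 TPM in WT PBS libraries (SD, n = 3 each). Chst11 (r = 0.989), Ptges (r = 0.986) and Jak2 (r = 0.983) were most like Nos2. Ptges, the prostaglandin E synthase, averaged 4.39 ± 0.225 TPM in KO and 19.5 ± 9.02 TPM in WT C. albicans libraries, and 2.74 ± 0.252 TPM in KO and 2.97 ± 0.354 TPM in WT PBS libraries.

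Ehd1 (r = 0.993), Gpr84 (r = 0.992) and Spic (r = 0.991) were most like Gch1, and Peli1, Dgkh (r = 0.992 each) and Mtdh (r = 0.991) most like Slc7a2. Gpr84, which encodes a fatty acid receptor, averaged 25.5 ± 1.62 TPM in KO and 80.6 ± 34.3 TPM in WT C. albicans libraries, and 5.72 ± 0.381 TPM in KO and 5.98 ± 0.354 TPM in WT PBS libraries (SD, n = 3 each). For Arg2 the highest r was 0.955 (Usp33), and for Asl it was 0.838 (Tsen15). Between members, r was 0.964 for Acod1 and Gch1, 0.920 for Nos2 and Slc7a2 and 0.918 for Acod1 and Nos2. It was 0.655 for Acod1 and Arg2 and -0.622 for Acod1 and Asl.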

How the data were processed

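Polyadenylated RNA of 12 BMDM libraries was sequenced, and libraries were grouped by their genotype and treatment labels. The submitters' processing notes name STAR 2.7.5a, cutadapt 2.6, CASAVA 1.8 and DESeq2 1.34.0, and the build mm10. The sources used here do not state the read counter, the annotation release or whether strand was used.

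The deposited values are TPM per gene and library, made by the authors. The authors also deposited, per the file headers, a mean normalised signal, a log2 fold change with its SE, a score and p-values. These belong to C. albicans over PBS in WT cells: log2 ratios of scaled reads there lay a median of 0.00112 away (10876 genes), against at least 0.148 for other comparisons. Whole reads were recovered from TPM and that signal: 100% of 171648 nonzero values lay within 0.01 of a whole read. Genes without a symbol (28) held 0.00132% of reads.

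Genes with at least 1 TPM in 3 or more libraries (11283) entered a limma 3.58.1 fit (R 4.3.3) of log2(TPM + 1) over all 12 libraries, with a mean for each group and 8 residual degrees of freedom. P-values were two-sided and adjusted by Benjamini-Hochberg over all tested genes in each comparison (threshold 0.05). Fold changes on this scale understate those of low genes. Up to 24 alternatives were run, 1 of them (limma voom on recovered reads) chosen after seeing the data. The members and gene lists were chosen with earlier results of these data known. By rule, text names the 8 members, up to 4 tested genes per list with the smallest interaction p, genes under the minimum, and the 3 genes most like each member. Any number of reads covers counting error only. Gene positions are from RefSeq (GRCm38.p6), and strands, overlaps and transcript sequences are from GENCODE M21. A result in the nitric oxide list is not reported here.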

Additional observations from a re-analysis of the deposited data

Results flagged for a closer look

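The response to C. albicans differed between genotypes by the test of the interaction (limma, response in KO minus response in WT, log2 scale) for 3 of the 6 tested genes. Of all 11283 tested genes, the interaction was called negative for 6.33% and positive for 7.52%. The members were chosen with earlier results of these data known. The interaction was -1.11 for Acod1 (adjusted p = 0.000318), -1.52 for Nos2 (adjusted p = 0.0235) and -0.37 for Gch1 (adjusted p = 0.00857). Acod1 and Gch1 rose in both genotypes, by less in KO cells, and the Nos2 difference in KO cells (0.40, adjusted p = 0.417) did not pass the threshold. Nos2 passed the level minimum only through the WT C. albicans libraries, and without that minimum its interaction was not called (adjusted p = 0.0512). Nos2 rested on 27 to 41 reads per KO C. albicans library and 82 to 296 per WT C. albicans library, and its value was lowest in size, at -1.31, without WT C. albicans replicate 2 or 3.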

How the results depend on the processing

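Of the results on single members under the alternatives, 670 kept their direction and side of the threshold, 18 lost and 13 gained a call, and 8 reversed; the cause was not tested. Acod1 was called in all 5 comparisons under all alternatives, with an interaction between -1.28 and -1.02. Gch1 kept all its calls, with an interaction between -0.44 and -0.33 (highest adjusted p = 0.0253). Leaving out libraries 1 at a time, members called were 2 to 3 for C. albicans in KO cells, 4 to 5 in WT cells, 5 for KO over WT with C. albicans, 2 to 3 with PBS and 2 to 4 for the interaction. The 2 planned tests on counts were not run because the deposited unit is TPM. Nos2 was not tested with a minimum of 5 TPM.

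The Nos2 interaction of -1.52 missed the threshold without the level minimum (-1.52, adjusted p = 0.0512), with a pseudocount of 0.1 (-1.97, 0.0553) and with voom (-2.03, 0.162), and without KO C. albicans replicate 3, KO PBS replicate 3, WT C. albicans replicate 2 or 3, or WT PBS replicate 1; with libraries left out it ranged from -1.93 to -1.31 (adjusted p 0.000114 to 0.0607). Arg2 in KO against WT with PBS missed it with median-ratio (-0.20, 0.139) and upper-quartile scaling (-0.18, 0.176), without the level minimum (-0.29, 0.0714) and with voom (-0.21, 0.223), and ranged from -0.35 to -0.25 with libraries left out. Slc7a2 with PBS missed it with length and GC trends removed (-0.32, 0.102). Arg2 with C. albicans in WT cells passed it with median-ratio scaling (0.30, 0.0209), upper-quartile scaling (0.27, 0.0385) and voom (0.32, 0.0302), and ranged from 0.16 to 0.28 with libraries left out. Asl passed it in KO against WT with PBS under median-ratio (0.20), upper-quartile (0.21) and voom (0.20), and with C. albicans under upper-quartile (0.16). Slc7a2 with C. albicans in KO cells passed it when only the compared libraries were fitted (0.31, 0.0492) and ranged from 0.27 to 0.36 with libraries left out; its interaction passed with voom (-0.60, 0.0377) and ranged from -0.68 to -0.41.

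Values that changed sign were all uncalled. Asl with C. albicans in WT cells was 0.076 with length and GC trends removed, 0.028 with median-ratio scaling and 0.032 with voom. Asl in KO against WT with C. albicans was -0.022 with those trends removed. With libraries left out, the Asl interaction ranged from -0.072 to 0.0091 and Arg2 with C. albicans in KO cells from -0.041 to 0.15.

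No pairing of same-numbered replicates was visible in the data: deviations correlated at -0.0874 to 0.0871 over 18 pairs, 0 of them over 0.1. With 3 libraries per group this cannot show whether they were paired by mouse or batch. With the replicate number as a block, Arg2 with C. albicans in WT cells passed the threshold (0.23, adjusted p = 0.0257). With the block and the length and GC trends removed, Slc7a2 with PBS missed it (-0.32, 0.135), and Asl was 0.076 with C. albicans in WT cells and -0.022 in KO against WT with C. albicans.

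Over all genes, calls for C. albicans in KO cells numbered 799, against 1350 with only those libraries fitted, 468, 532 and 441 without KO C. albicans replicate 1, 2 or 3, 464 and 420 without KO PBS replicate 1 or 3, and 1487 without WT C. albicans replicate 1. Interaction calls numbered 1563, against 1036 without KO PBS replicate 1 and 2531 without WT C. albicans replicate 1. KO against WT with PBS gave 3641, against 2075 with length and GC trends removed and 1885 with the block as well.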
